A study of Mus musculus with 74 samples.

Results

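The 8 arrays described here measured a mouse T cell hybridoma that carried either a retrovirus for Nur77 or the empty retrovirus, and they were chosen from the 74 arrays of the series by their labels alone. DO11.10 is a hybridoma line, a T cell fused to a thymoma cell so that it grows in culture. The 4 Nur77 arrays held RNA of hybridoma transduced with MSCV Nur77, and the 4 control arrays held RNA of hybridoma transduced with the empty MSCV virus, in the set that the labels give as 4 replicates (called MSCV_B here). MSCV is a murine stem cell virus vector that inserts into the genome of dividing cells and expresses its cargo from the viral promoter. Every array carried a second RNA, from untreated DO11.10 hybridoma, so each value is a ratio of transduced to untreated cells. In each group the transduced RNA was in Cy5 on 2 arrays and in Cy3 on the other 2. The labels name no culture, day or selection of transduced cells, so the p-values below rest on array-to-array spread alone, part or all of which may be technical. The values are treated as log2 ratios, although the log base is not stated. The 4 empty-virus arrays came from slides numbered 1 to 4 and the 4 Nur77 arrays from slides 5 to 8, so that slide and group cannot be told apart.

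Nur77 is the product of Nr4a1, the founding member of the NR4A orphan nuclear receptors, a small family of transcription factors that act without a known natural ligand. Its transcript is an immediate early product of T cell receptor stimulation, and in thymocytes the protein is linked to the death of cells that bind self antigen too strongly. It binds DNA as a monomer at the NBRE, an element spelled AAAGGTCA, as a dimer at related repeats, and together with retinoid X receptors. In the wider study the class IIa deacetylase HDAC7 and the transcription factor MEF2D were studied beside it, and both are known regulators of the Nr4a1 promoter.

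The NBRE letters were looked for in RefSeq promoters of build GRCm38.p6, each 300 bases long (250 before and 50 after the annotated start), on both strands. Among genes that rose at least 2-fold with Nur77 by the comparison below, 150 of 197 had a promoter entry and 6 of those (4%) held the 8 letters. The share among all 10584 measured genes with an entry was 1.52%, and among the 47 genes with an entry of the 64 that fell at least 2-fold it was 2.13%. The shorter core AGGTCA, which is contained in the NBRE, stood in 20% of the raised, 14.9% of the lowered and 16.3% of all measured genes with an entry. These shares describe letters in a short window and were not tested. The sequences are shown for the 6 raised genes and the 1 lowered gene because they are the members whose proximal promoter spells the element that Nur77 binds. Each is printed 5′ to 3′ on the strand of its gene, with the NBRE or its reverse complement TGACCTTT in capitals, and every window ends before the start site.
F7, coagulation factor VII (chr8:13025974-13026033, + strand): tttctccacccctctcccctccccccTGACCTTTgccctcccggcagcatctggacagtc
Slc5a11, a sodium-coupled inositol transporter (chr7:123214797-123214856, + strand): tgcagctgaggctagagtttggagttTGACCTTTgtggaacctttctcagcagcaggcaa
Sag, the arrestin of rod photoreceptors (chr1:87803430-87803495, + strand): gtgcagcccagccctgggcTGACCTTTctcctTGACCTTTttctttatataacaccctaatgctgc
Fgd2, an exchange factor for Cdc42 (chr17:29360770-29360829, + strand): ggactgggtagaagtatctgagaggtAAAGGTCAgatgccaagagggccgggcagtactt
Slc2a2, the glucose transporter of liver and islets (chr3:28697854-28697902, + strand): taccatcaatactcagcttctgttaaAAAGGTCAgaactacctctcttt
Ddc, aromatic amino acid decarboxylase (chr11:11898184-11898243, - strand): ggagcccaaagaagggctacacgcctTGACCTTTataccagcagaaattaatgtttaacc
P2ry14, a receptor for UDP-glucose and the lowered gene of the set (chr3:59131372-59131431, - strand): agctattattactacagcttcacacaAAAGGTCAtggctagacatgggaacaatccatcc
The element began 34 bases before the start of F7, 43 before that of Slc5a11, 118 before that of Fgd2, 23 before that of Slc2a2 and 73 before that of Ddc. The Sag window held it at 2 places, beginning 231 and 218 bases before the start. Over empty virus these genes differed by 2.94 (F7), 2.62 (Slc5a11), 2.28 (Sag), 1.48 (Fgd2), 1.22 (Slc2a2), 1.14 (Ddc) and -1.07 (P2ry14) on the log2 scale.

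The first check was Nr4a1 itself. Its ratio to untreated cells was 4.24, 4.45, 3.18 and 6.12 on the 4 Nur77 arrays, and -0.0040, -0.12, 0.68 and -0.011 on the 4 empty-virus arrays (log2, each array centred on its median over all probes). All 4 Nur77 arrays lay above all 4 empty-virus arrays, and both the lowest and the highest of them were Cy3 arrays. The difference was 4.36 (SE 0.47), a 20.5-fold rise, with a limma adjusted p of 0.000296. Whether the probe reads the virus, the cell's own gene or both was not tested. The related receptors Nr4a2 and Nr4a3 did not pass the test, with differences of 0.31 and -0.074. Of the retinoid X receptors, partners of Nur77 on DNA, Rxra fell by 0.87 at its first probe, while its second probe read -0.036 and did not pass, so the 2 probes disagree; Rxrb and Rxrg read -0.0083 and 0.12 and did not pass.

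Across all 16463 probes, 1138 (6.91%) differed between Nur77 and empty virus at an adjusted p under 0.05, with 596 (3.62%) higher and 542 (3.29%) lower. Large differences lay mostly on the raised side: 212 probes (1.29%) were at least 2-fold higher and 72 (0.437%) at least 2-fold lower, and at 8-fold the counts were 18 and 1. The arrays of the 2 groups did not overlap on 187 of the 212 and on 63 of the 72, against 7.98% of all probes. These probes were picked by the difference between the same arrays, so most of that separation follows from the choice. The test was limma's moderated test with a term for the dye, on 8 arrays, and the median difference over all probes was -0.0075. The count of 1138 became 677 without empty-virus replicate 1 and 695 without replicate 3, and 365 without the dye term. The Nur77 array on slide 8 (replicate 4) had a narrower spread of ratios than the other 3, a median absolute deviation of 0.188 against 0.282 to 0.357, and the 212 raised probes had a median of 1.24 there against 1.65 to 1.74. Without that array 698 probes rose and 557 fell, 244 and 90 of them at least 2-fold. With the 12 arrays of the other empty-virus set (MSCV_A) as control, 231 probes were at least 2-fold higher and 136 at least 2-fold lower, so the lowered side grew.

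Apart from Nr4a1, the 4 highest raised genes are best known from tissues other than T cells. Ahsg encodes fetuin-A, a serum glycoprotein made by liver, and had the largest difference of all named genes, 6.16 (SE 0.30) or 71.4-fold. Its 4 Nur77 arrays read 5.47, 6.03, 4.66 and 6.35, and its 4 empty-virus arrays -0.51, -0.67, -0.32 and -0.63. No Nur77 array of Ahsg came near the control range, which lay below the untreated cells on all 4 arrays. Napb, the neuronal beta form of the SNAP proteins that recycle membrane fusion complexes, read 4.97, 5.49, 5.36 and 4.78 with Nur77 and -0.18, -0.12, 0.014 and 0.090 with empty virus. Its 2 probes agreed, with differences of 5.20 (SE 0.16) and 5.60 (SE 0.13). Necab2, a neuronal calcium-binding protein, read 5.54, 5.61, 5.53 and 4.16 with Nur77 against 0.47, 0.061, -0.014 and 0.11, a difference of 5.05 (SE 0.25). Alpl, the tissue-nonspecific alkaline phosphatase of bone and liver, read 4.65, 5.17, 4.82 and 3.31 against -0.16, 0.23, 0.21 and 0.085, a difference of 4.40 (SE 0.31). For Necab2 and Alpl the lowest Nur77 array was the one on slide 8, which was the highest for Nr4a1 and Ahsg. All 4 genes passed the test, with adjusted p from 6.21e-08 (Napb) to 1.27e-05 (Alpl).

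Below these 4 followed a mixed group. Eno3, the muscle form of the glycolytic enzyme enolase, read 3.47, 3.40, 4.22 and 3.26 with Nur77 and -0.46, -0.63, 0.48 and 0.029 with empty virus. Tmem273, an uncharacterised membrane protein, rose at both of its probes, by 3.42 and 2.05. Brdt, a bromodomain protein of male germ cells, rose by 3.39, and Greb1, named for its induction by oestrogen in breast cancer cells, by 3.23. Rgcc, a regulator of the cell cycle, rose by 3.17, Tg, the thyroglobulin from which thyroid hormone is made, by 3.13, and Wwtr1, the coactivator TAZ of the Hippo pathway, by 3.11. The ratios of Tg were 3.31, 3.14, 3.64 and 2.82 with Nur77, all within 1 log2 unit, while its empty-virus ratios stayed between 0.037 and 0.20. Gfra1, a receptor for glial cell line-derived neurotrophic factor, rose by 3.03, F7 by 2.94 and Itih5, a hyaluronan-binding serum protein of the inter-alpha-trypsin inhibitor family, by 2.84. For Tnfrsf9, the costimulatory receptor 4-1BB, the probes disagreed: the second rose by 3.22 (SE 0.20), with 3.21, 3.66, 2.79 and 1.97 on the Nur77 arrays, and the first read 0.21 and did not pass.

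**Figure D1:**
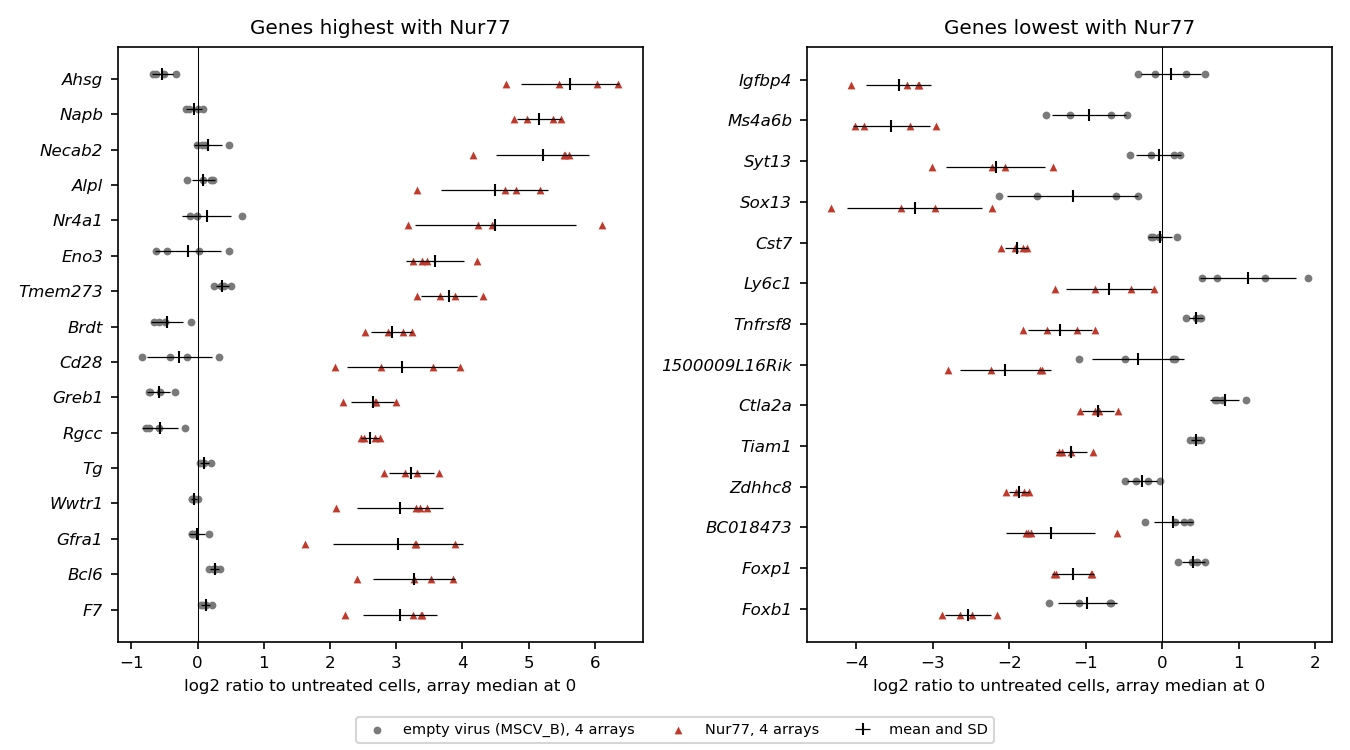
Log2 ratio to untreated cells (horizontal axis, array median at 0) of 16 genes highest (left) and 14 genes lowest (right) with Nur77, one point per array: grey circles are the 4 empty-virus arrays, red triangles the 4 Nur77 arrays, black marks the mean and SD. In every row the 2 groups are separate, though only narrowly for Sox13. The group means lie about 6.16 log2 units apart for Ahsg and 3.56 for Igfbp4.

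Lowered genes moved less and were of other kinds. Igfbp4, a secreted binding protein for insulin-like growth factors, fell furthest: it read -3.20, -4.08, -3.34 and -3.18 with Nur77 and -0.099, -0.31, 0.56 and 0.31 with empty virus, a difference of -3.56 (SE 0.18) and an adjusted p of 1.64e-06. Ms4a6b, a 4-span membrane protein of T cells, read -3.90, -4.02, -3.30 and -2.96 against -1.51, -1.20, -0.46 and -0.66; its empty-virus arrays were already below untreated cells, and the difference was -2.58 (SE 0.13). Syt13, a synaptotagmin of vesicle traffic, differed by -2.13 (SE 0.20) and Cst7, the protease inhibitor cystatin F of cytotoxic cells, by -1.88 (SE 0.12). The 4 Cst7 ratios with Nur77, -2.11, -1.77, -1.92 and -1.82, lay closer together than those of any of the other 4 genes with the lowest differences. Sox13, a transcription factor of gamma-delta T cells, differed by -2.07 (SE 0.41) with an adjusted p of 0.0124. Its call was lost without empty-virus replicate 1 (adjusted p = 0.0552), and its Nur77 ratios ranged from -4.34 to -2.23.

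The rest of the 20 lowest were mixed and included genes of T cell signalling and transcription. Differences were -1.73 for 1500009L16Rik, -1.61 for BC018473, -1.55 for Prtn3 and -1.46 for Cntn1. Tnfrsf8, the receptor CD30, differed by -1.77, Tiam1, an exchange factor for Rac, by -1.63, and Foxp1, a forkhead factor that keeps T cells quiescent, by -1.57. Ctla2a and Ctla2b, related inhibitors of cysteine proteases whose transcripts may share signal, differed by -1.66 and -1.46. Both were above untreated cells with empty virus (0.82 and 0.63) and below them with Nur77 (-0.84 and -0.83). Rtkn2, rhotekin-2, differed by -1.46, Zdhhc8, a palmitoyltransferase, by -1.61, Tenm4, a teneurin, by -1.47, and Foxb1, a forkhead factor of the developing brain, by -1.56. For Izumo1r, the folate receptor 4 of regulatory T cells, the first probe fell by 1.53 and the second read -0.15 and did not pass.

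Ratios to untreated cells were read for each of the 2 groups. Nur77 differed from untreated cells on 3171 probes (19.3%) and empty virus on 770 (4.68%), of which 237 (1.44%) and 13 (0.079%) were at least 2-fold higher and 132 (0.802%) and 30 (0.182%) at least 2-fold lower. Of the 212 raised probes, 183 stood at least 2-fold above untreated cells with Nur77 (1.44% of all probes). Of the 72 lowered probes, 56 stood at least 2-fold below untreated cells with Nur77 (0.802% of all probes). An empty-virus ratio within 0.5 of 0 was read on 193 of the 212 and 58 of the 72. Both sets were picked by the difference between these groups, and the share of all probes within 0.5 of 0 was not counted. The count for empty virus fell to between 244 and 312 when any 1 of its 4 arrays was left out. The pairs of empty-virus arrays with the dyes reversed correlated at -0.288 to -0.182 over all probes, and those of the same dye at 0.675 to 0.680; for Nur77 the ranges were 0.203 to 0.533 and 0.670 to 0.793. On 44 of the 45 probes whose mean empty-virus ratio was at least 2-fold, all 4 arrays had the same sign. These probes were picked by that mean, which favours 1 sign, so the count cannot settle the ratio direction of those arrays.

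A small set of genes stood above empty virus although Nur77 cells had less of them than untreated cells. Selenbp2, a selenium-binding protein, read -1.77, -1.42, -2.18 and -1.24 with Nur77 and -3.35, -3.38, -3.74 and -3.06 with empty virus, so that it was 1.73 over empty virus and -1.65 over untreated cells. Bnip3, a mitochondrial protein induced by low oxygen, read -1.21, -1.18, -1.50 and -1.30 with Nur77 and -2.35, -2.42, -2.46 and -2.40 with empty virus, a difference of 1.11. Ccng2, the growth-inhibiting cyclin G2, had means of -1.35 with Nur77 and -2.23 with empty virus. With the MSCV_A arrays as control, the 3 genes turned to -2.14, -1.62 and -2.17. Stc1, the secreted glycoprotein stanniocalcin-1, was low in both groups (-3.12 with Nur77, -2.09 with empty virus) and fell by 1.03 between them.

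Genes of hypoxia and glycolysis were low in both groups. Over untreated cells, 0 of the 28 measured genes of this list rose and 16 fell with Nur77 (9.22% and 10% of all probes), and 0 rose and 13 fell with empty virus (2.07% and 2.61%), with medians of -0.56 and -0.51. Ndrg1, a hypoxia-induced growth regulator, read -2.80 and -3.29, Aldoc, the brain form of aldolase, -1.77 and -2.31, and Pfkl, the liver form of phosphofructokinase, -0.91 and -1.01. Between Nur77 and empty virus only Bnip3 and Selenbp2 of the 28 rose and 0 fell, and with the MSCV_A arrays as control 0 rose and 13 fell. Of 18 cholesterol synthesis genes, 8 fell over untreated cells with Nur77 and 10 with empty virus, while between the 2 groups Lss, lanosterol synthase, rose by 0.64 and the other 17 did not pass. Lss read -0.0059 with the MSCV_A arrays as control, which gave 0 raised and 7 lowered of the 18. Of 21 p53 target genes, 8 rose over untreated cells with Nur77 and 11 with empty virus.

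**Figure D2:**
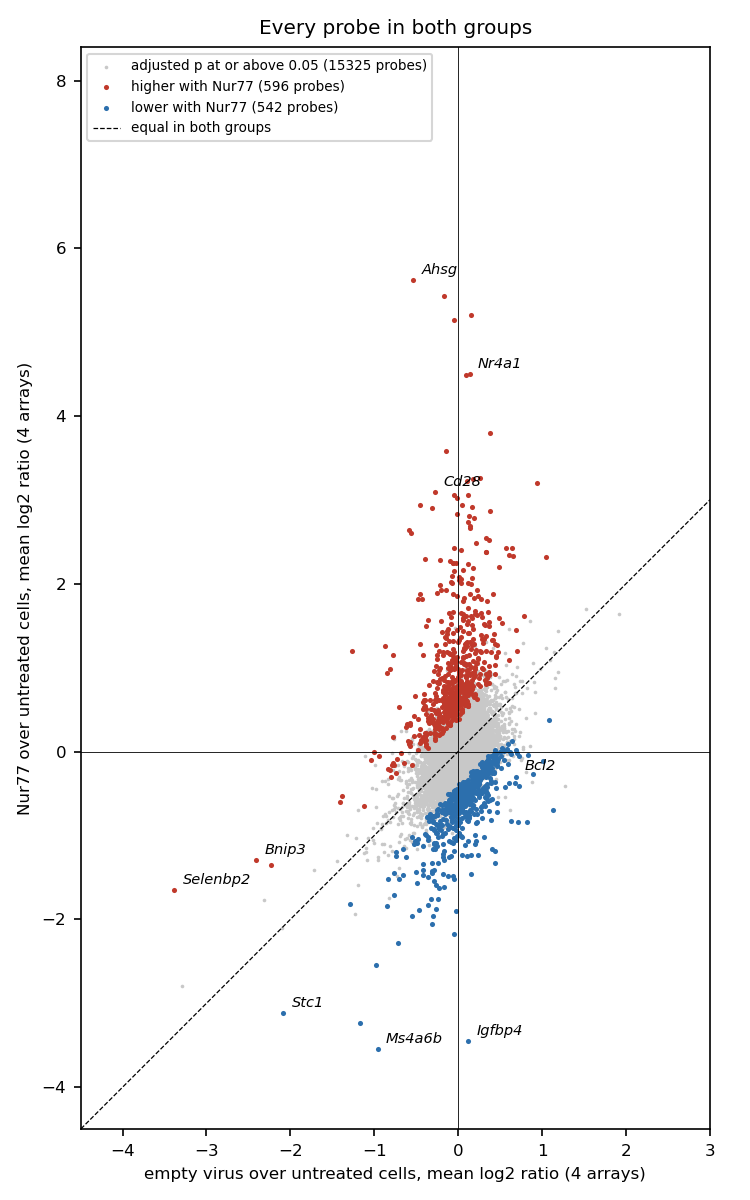
Each point is a probe, with its mean log2 ratio to untreated cells on the 4 empty-virus arrays (horizontal axis) and the 4 Nur77 arrays (vertical axis); red and blue mark the 596 probes higher and 542 lower with Nur77, and the dashed line marks equal ratios. Most red points rise along an empty-virus ratio near 0, while Selenbp2 and Bnip3 lie low on both axes.

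Gene lists were counted by gene, with the first probe standing for a gene, against 3.89% of all 13409 measured genes that rose and 3.43% that fell. Of 26 lists, that of the CD28 family, CD5, CD6 and TNF receptor costimulation had the largest share of raised members. Of its 23 measured genes 6 rose (Cd28, Pdcd1, Cd6, Cd5, Cd27 and Tnfrsf18), 2 fell and 15 did not pass, with a list median of 0.21. It holds costimulatory and inhibitory receptors and their ligands. The lists were chosen with earlier results of these data known, so the ranking of lists is partly set by that choice. Cd28, the main costimulatory receptor, read 3.56, 3.96, 2.08 and 2.77 with Nur77 and -0.16, 0.32, -0.42 and -0.84 with empty virus, a difference of 3.37 (SE 0.21). Pdcd1, the inhibitory receptor PD-1, read 2.54, 2.08, 2.15 and 2.40 against -0.35, -0.31, -0.52 and -0.38, and its 4 control arrays lay between -0.52 and -0.31. Cd6, a scavenger receptor that tunes T cell receptor signals, read 2.22, 2.15, 2.26 and 1.67 against 0.073, 0.29, 0.22 and 0.090, and its relative Cd5 1.59, 1.15, 1.32 and 0.58 against 0.055, -0.34, -0.14 and 0.034. On all 4 genes the groups were separate. Cd27 and Tnfrsf18 (GITR), of the TNF receptor family, rose by 0.91 and 0.64. The fallen members were Cd274 and Pdcd1lg2, the 2 ligands of PD-1, at -0.71 and -0.50; Cd274 lost its call without empty-virus replicate 2, and neither fell in every fit that left out 1 array. Over those 8 fits the list had 5 to 8 raised and 0 to 2 lowered members, and with the MSCV_A control 9 and 1.

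Of 20 measured genes of metabolism and steroid synthesis linked to NR4A receptors in other tissues, 4 rose and 0 fell, with a median of 0.074. They were Eno3, Slc2a2, Pfkm and Lpin1. Pfkm, the muscle phosphofructokinase, read 0.52, 0.58, 0.83 and 0.54 with Nur77 against -0.40, -0.33, -0.47 and -0.37, a difference of 1.01 (SE 0.11). Slc2a2, the transporter whose promoter window is shown above, read 1.87, 2.31, 0.74 and 1.18 against 0.79, 1.10, -0.53 and -0.13, so its groups overlapped while the dye-adjusted difference of 1.22 (SE 0.16) passed (adjusted p = 0.000949). Lpin1, the phosphatidate phosphatase lipin 1, rose by 0.47, kept its call in 4 of 8 fits that left out 1 array and read -0.086 with the MSCV_A arrays as control. Pck1, Fbp1, Pdk4, Cd36 and 12 other members did not pass.

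Genes of mature thymocytes and T cells had the largest share that fell of the 26 lists: 10 of 30 fell, 3 rose and the median was -0.15. Cd52, a glycoprotein of the lymphocyte surface, fell by 1.44, and Runx1, a factor of T cell development, by 1.13. Runx1 read -1.62, -1.68, -1.20 and -1.29 with Nur77 and -0.16, -0.47, -0.35 and -0.29 with empty virus. Ly6c1, a surface marker of memory T cells, read -0.87, -1.40, -0.11 and -0.41 with Nur77 and 0.72, 0.52, 1.91 and 1.35 with empty virus, so that all 4 control arrays were above untreated cells and all 4 Nur77 arrays below them. The integrin chain Itgb7 was at -0.036 with Nur77 and 0.84 with empty virus, and the survival gene Bcl2 at -0.30 and 0.69. Bcl2 therefore differed by -0.99 (SE 0.13) from MSCV_B, and by 0.14 with the MSCV_A arrays as control. The raised members were Cd5, Cd6 and Foxo1, a forkhead factor of resting T cells that rose by 1.20. Leaving out 1 array gave 7 to 9 lowered members, and the MSCV_A control gave 6 lowered and 5 raised.

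Double-positive thymocyte genes showed 4 raised and 2 lowered members of 25, with a median of -0.073. Bcl6, a transcriptional repressor of germinal centre B cells and follicular helper T cells, read 3.85, 3.53, 3.27 and 2.41 with Nur77 and 0.34, 0.17, 0.24 and 0.28 with empty virus, a difference of 3.01 (SE 0.22). Id3, an inhibitor of E proteins, rose by 1.07, and its groups were separate. Dntt, the enzyme that adds bases at V(D)J joints, read 0.31, 0.78, 2.08 and 1.31 against -0.32, -0.41, 0.96 and 0.72; the higher values of both groups were on the Cy3 arrays, and with the dye term the difference was 0.88 (SE 0.17) (adjusted p = 0.012). Cd4 rose by 0.59, with a call kept in 3 of 8 fits that left out 1 array. Those fits gave 3 to 5 raised and at most 1 lowered member of the list, so the lowered count did not hold; Lef1, a factor of T cell development and 1 of the 2 lowered, kept its call in 2 of the 8. Of 31 genes of T cell receptor signalling, 3 rose (Cd247, the zeta chain, by 0.89, the adaptor Sla by 0.94, and Cd4) and 2 fell (the adaptor Sh2d2a at -1.12 and the phosphatase Ptpn6 at -0.57).

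Immediate early genes, the class to which Nr4a1 itself belongs, had 7 lowered and 4 raised members of 40 and a median of -0.019. Egr1, a zinc finger factor of the same early response, read -1.99, -1.62, -2.45 and -1.79 with Nur77 and -0.17, -0.37, -0.77 and -0.87 with empty virus, a difference of -1.42 (SE 0.16). Fosl2, a member of the AP-1 family, differed by -1.32, Ier2 by -1.13, and Ier3 by -0.82. Cd69, an early activation antigen, differed by -0.81. Beside Nr4a1 itself, Dusp4, a phosphatase of MAP kinases, rose by 1.55 (SE 0.12), Btg1, an antiproliferative gene, by 0.95, and Rgs2 by 0.60. Egr2, Egr3, Fos, Jun, Junb and Myc did not pass. Leaving out 1 array gave 5 to 9 lowered members, and the MSCV_A control 11. In the list of cytokines, chemokines and their receptors, 6 of 35 fell and 1 rose, with 3 to 6 lowered when 1 array was left out, and 3 raised and 4 lowered with the MSCV_A control. Socs2, a suppressor of cytokine signals, read -1.41, -1.89, -2.37 and -1.89 with Nur77 and -0.23, -0.35, -0.77 and -0.52 with empty virus, and its relative Cish differed by -0.67. The receptor chain Il6ra differed by -0.85, and Il4 rose by 0.64.

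Apoptosis genes moved in small number. Tnfsf10, the death ligand TRAIL, read 2.42, 1.57, 2.67 and 2.32 with Nur77 and -0.18, -0.040, -0.15 and 0.14 with empty virus, a difference of 2.30 (SE 0.19). Of the 17 death ligands and receptors it rose together with Tnfrsf1b (0.98), while Tnfrsf21 (death receptor 6), Tnfsf14 and Tnf fell; Tnf kept its call in 2 of 8 fits that left out 1 array, and the list had 1 to 4 lowered members over them. Of 28 caspases, apoptosome members and linked kinases, 2 rose: Pdcd4, an inhibitor of translation named programmed cell death 4, by 1.57 (SE 0.12), and Stk17b, the kinase DRAK2, by 1.16 (SE 0.15) at the first probe and 0.93 at the second. None of the 28 fell in this fit or in those that left out 1 array, while the MSCV_A control gave 3 raised and 4 lowered. In the Bcl2 family of 19 genes, Bcl2 and Bnip3, both described above, were the ones that passed.

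Class IIa deacetylases, MEF2 factors and their regulators had 4 lowered members of 21 and 0 raised, with 1 to 3 lowered when 1 array was left out. Hdac7 read -1.51, -1.53, -1.20 and -1.85 with Nur77 and -1.16, -0.92, -0.34 and -0.92 with empty virus, a difference of -0.69 (SE 0.18) with an adjusted p of 0.0482, and its call was kept in none of the 8 fits that left out 1 array (adjusted p 0.0561 to 0.132). Hdac5 read -1.14, -1.21, -1.06 and -1.25 against -0.64, -0.58, -0.75 and -0.65; both groups were below untreated cells and the difference was -0.51 (SE 0.10), lost without empty-virus replicate 2 (adjusted p = 0.0518). Nfatc2, a calcium-regulated factor, differed by -0.68, and Mef2d read -0.27 and did not pass. Of 26 integrins and adhesion genes, 5 fell and 1 rose, against 2 and 3 with the MSCV_A control. The fallen included Itgal, the alpha chain of LFA-1 (-0.97), and Pecam1 (-0.98), while Itgam, the alpha chain of Mac-1 in myeloid cells, rose by 2.90 (SE 0.29). Itgam read 3.36, 3.93, 2.92 and 1.55 with Nur77 and 0.26, 0.33, -0.43 and 0.012 with empty virus.

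The other lists had 3 or fewer raised members. Of 47 cell cycle genes, 2 rose (Rbl2 by 0.79 and Ccng2) and 6 fell, among them Cdk6 (-0.86) and Ccnd2 (-0.75), with 3 to 7 lowered when 1 array was left out. The insulin-like growth factor axis had 3 lowered members of 16 (Igfbp4, Igf1r at -0.71, and Stc1) and 1 raised, Igf2r (0.66). With the MSCV_A control it had 6 lowered and 1 raised. The second Igf1r probe read -0.755 and narrowly did not pass (limma adjusted p = 0.0504). Of 26 genes for proteins secreted by liver, 2 rose (Ahsg, and its paralog Fetub by 0.55, kept in 2 of 8 fits without 1 array) and Trf, transferrin, fell (-0.80). Napb and Necab2 were the 2 raised of 27 neuronal vesicle and calcium-binding genes, and Alpl the 1 raised of 15 bone and mineral genes. The lists of glucocorticoid, interferon and stress genes had 1, 1 and 2 raised and 2, 1 and 0 lowered members, the raised ones being Mt2, Mx1, Cth and Dnajb9, of which Mt2 kept its call in 1 and Dnajb9 in 3 of 8 fits without 1 array. With the MSCV_A control these lists had 1, 5 and 2 raised and 5, 3 and 4 lowered members. Trp53inp1 and Ccng2 rose and Cdkn1a fell among the 21 p53 targets; Trp53inp1 kept its call in 3 and Cdkn1a in 5 of the 8 fits, Ccng2 turned to a negative difference with the MSCV_A control as given above, and that control gave 6 raised and 4 lowered. Of the remaining lists, 19 inhibitory and tolerance genes had 2 raised (Pdcd1, and Cd160, kept in 3 of the 8 fits) and 3 lowered (1 to 3 over those fits). The 11 membrane-spanning 4A genes had 0 raised and 2 lowered, Ms4a6b and Ms4a4b. The second Ms4a4b probe read -0.14 and did not pass.

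**Figure D3:**
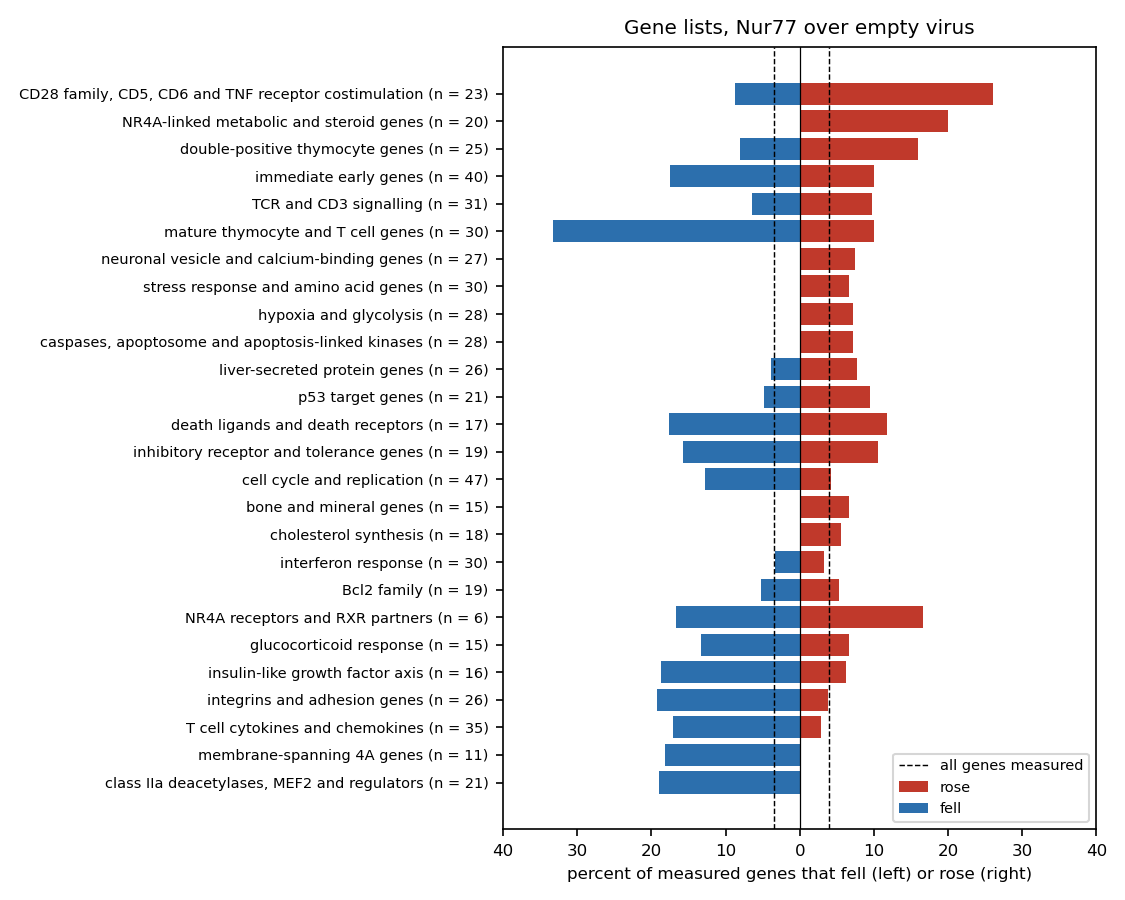
Percent of the measured genes of each list that rose (red, right) or fell (blue, left) with Nur77 over empty virus at an adjusted p under 0.05; dashed lines mark the shares over all measured genes, 3.89% and 3.43%. The list of the CD28 family, CD5, CD6 and TNF receptor costimulation reaches furthest to the right (6 of 23 genes). The mature T cell list reaches furthest to the left (10 of 30). Lists were chosen with earlier results of these data known.

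Markers of other cell types were read to check the hybridoma label. The arrays give ratios and no levels, so they show a change of a marker and not its presence. Of 9 T cell markers, Cd247 and Cd4 rose and 0 fell, with Cd3e at -0.38 and a median of -0.11. Cd4 kept its call in 3 of 8 fits that left out 1 array, and the MSCV_A control gave 2 raised and 1 lowered. Over untreated cells, 2 of the 9 rose and 3 fell with Nur77 (9.22% and 10% of all probes). None of 6 B cell, 2 erythroid and 5 fibroblast markers passed. Of 7 myeloid markers Itgam rose and Fcgr3, an Fc receptor, fell (-1.19), and Cd14, Cd68 and Adgre1 read -0.077, -0.16 and -0.033. Of 6 natural killer markers Gzma, the protease granzyme A, rose by 2.46 (SE 0.15), with 1.28, 0.76, 1.36 and 1.40 against -1.10, -1.35, -1.23 and -1.37, and Ncr1, Klrd1 and Prf1 did not pass. In bulk RNA, more cells of a type and more RNA per cell cannot be told apart.

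The MEF2D_VP16 and HDAC7_VP16 viruses make fusions of each protein with the activation domain of the viral factor VP16, and both were read against the same kind of untreated RNA. Nur77 differed from MEF2D_VP16 (4 arrays) on 2134 probes (13%), and from HDAC7_VP16 (10 arrays) on 919 (5.58%); the counts were 1355 without Nur77 replicate 1 and 602 without Nur77 replicate 2. The Nr4a1 ratio was highest with the Nur77 virus, by 3.13 (95% interval 2.01 to 4.25, adjusted p = 0.00322) over MEF2D_VP16 and by 1.91 (95% interval 0.90 to 2.92, adjusted p = 0.0278) over HDAC7_VP16. Mean Nr4a1 ratios were 4.50 ± 1.21 (SD, n = 4) with Nur77, 1.36 ± 0.33 (SD, n = 4) with MEF2D_VP16 and 2.59 ± 0.73 (SD, n = 10) with HDAC7_VP16.

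For several of the leading genes, Nur77 and MEF2D_VP16 did not differ by an amount that passed. Eno3 had means of 3.59 and 3.72, a difference of -0.13 (95% interval -0.59 to 0.33, adjusted p = 0.777). Tmem273 differed by 0.18 (95% interval -0.35 to 0.71, adjusted p = 0.728), Pdcd1 by 0.094 (95% interval -0.21 to 0.40, adjusted p = 0.757) and Cd6 by 0.028 (95% interval -0.42 to 0.48, adjusted p = 0.959). For Cd28 the difference was -0.44 (95% interval -1.22 to 0.34, adjusted p = 0.514), and against HDAC7_VP16 it was -0.76 (95% interval -1.57 to 0.040, adjusted p = 0.336). The lowered gene Ms4a6b had means of -3.54 with Nur77 and -3.63 with MEF2D_VP16, a difference of 0.089 (95% interval -0.65 to 0.83, adjusted p = 0.916), and fell less with HDAC7_VP16 (-1.45), where the difference was -2.09 (95% interval -2.47 to -1.71, adjusted p = 6.44e-06). The intervals that hold 0 do not show that the viruses act alike. The slides differ between these groups too.

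Other leading genes stood well above both VP16 groups. Napb had means of 0.71 with MEF2D_VP16 and 0.18 with HDAC7_VP16, and was higher with Nur77 by 4.44 and 4.97. Necab2 was higher by 5.00 and 4.29, Alpl by 3.32 and 3.80, F7 by 3.03 and 2.98, and Itgam by 2.89 and 2.82. The mean ratios of F7 and Itgam lay between 0.034 and 0.12 with both VP16 viruses. Ahsg was also high with MEF2D_VP16 (4.02) and HDAC7_VP16 (1.96), and was higher with Nur77 by 1.60 (95% interval 0.86 to 2.35, adjusted p = 0.0118) and 3.67 (95% interval 2.80 to 4.54, adjusted p = 7.8e-05). On the lowered side, Cst7 and Syt13 had mean ratios between -0.11 and 0.053 in both VP16 groups and were lower with Nur77 by differences of -1.79 and -2.14 against MEF2D_VP16.

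Some genes had mean ratios of opposite sign in the 2 groups. Hdac5 had a mean ratio of 2.46 with MEF2D_VP16 and -1.17 with Nur77, a difference of -3.63 (95% interval -3.94 to -3.33, adjusted p = 4.01e-06). Hdac7 had 1.36 against -1.52, a difference of -2.88 (95% interval -3.25 to -2.52, adjusted p = 1.79e-05). Since the HDAC7_VP16 virus carries Hdac7 sequence itself, its ratio in that group (0.55) may read the virus. Selenbp2, Stc1 and Henmt1, an RNA methyltransferase of germ cells, had means of 1.95, 1.07 and 1.96 with MEF2D_VP16 and -1.65, -3.12 and -1.25 with Nur77. Empty virus was below untreated cells too for Hdac5 (-0.66), Hdac7 (-0.83), Selenbp2 (-3.38) and Stc1 (-2.09). For these genes the negative sign with Nur77 was therefore shared with its control, and Selenbp2 was 1.73 higher with Nur77 than with empty virus.

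**Figure D4:**
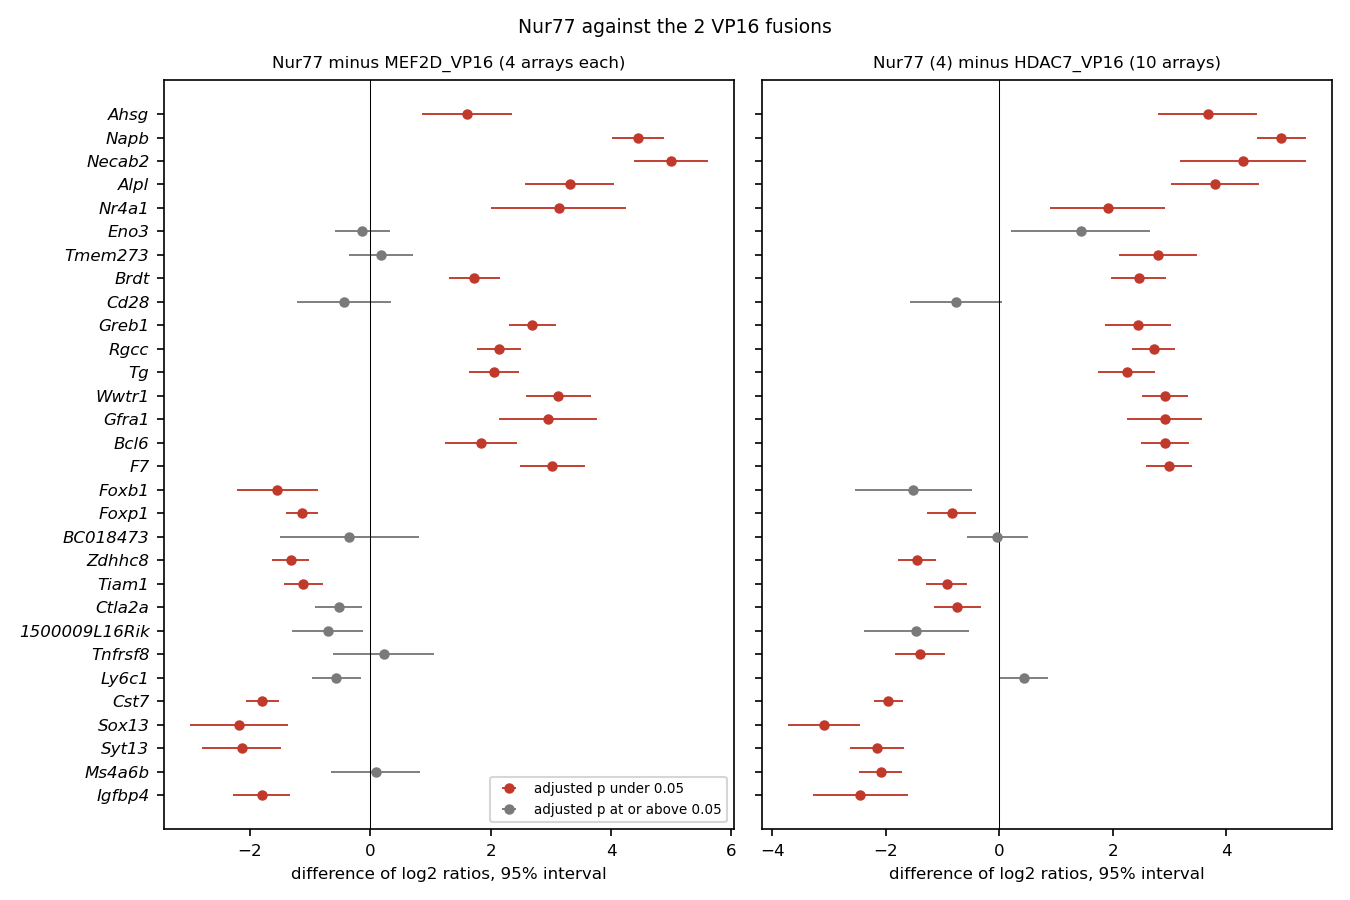
Difference of mean log2 ratios (point) with its 95% interval (line) between Nur77 and MEF2D_VP16 (left) and between Nur77 and HDAC7_VP16 (right), for the 30 genes plotted by array above; red marks an adjusted p under 0.05. Napb and Necab2 lie far to the right in both panels, while Eno3 and Cd28 lie near 0 on the left.

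In other groups of the series the Nr4a1 ratio was also high. The 212 raised probes, which were picked for their rise with the Nur77 virus, had lower median ratios there. PMA and ionomycin, drugs that mimic T cell receptor signals, were given to hybridoma with the empty virus (8 arrays), and Nr4a1 had a mean ratio of 4.30 ± 0.83 (SD) there. In thymocytes of mice injected with antigenic peptide (6 arrays each) it was 3.07 ± 0.26 at 3 h, 3.04 ± 0.19 at 6 h and 1.75 ± 0.87 at 12 h. The 212 raised probes had a median ratio of 0.046 with PMA and ionomycin, and of -0.0037, 0.0098 and 0.083 at the 3 times after peptide, against 1.52 with Nur77. Their medians were 0.26 with MEF2D_VP16 and 0.19 with HDAC7_VP16. Of the 212, 25 stood at least 2-fold higher with PMA and ionomycin (1.14% of all probes), 38 with MEF2D_VP16 (1.04%) and 16 with HDAC7_VP16 (0.146%). Each was a larger share than among all probes, so some of the raised probes were high in these groups too. Time after transduction and the level of Nur77 protein were not measured here, and the peptide groups are thymocytes in place of hybridoma. The drug arrays were read a few hours after the drugs were given.

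The groups with high or low ratios varied by gene. Bcl6 was high with Nur77 (3.27), with PMA and ionomycin (2.91 ± 0.64) and in thymocytes of T cell receptor transgenic mice over those of mhc -/- mice (3.28 ± 0.23), and low 12 h after peptide (-2.13 ± 1.64). Pdcd1 was at 2.55 ± 0.49 with PMA and ionomycin. Egr1, low with Nur77, was at 3.06 ± 0.98 with the drugs and 1.91 ± 0.43 at 3 h after peptide. Sox13 and Ms4a6b were low with the drugs too, at -2.24 ± 0.28 and -2.20 ± 0.46. Necab2 and Napb, by contrast, had mean ratios from -0.058 to 0.92 in the 10 groups other than Nur77.

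Over all 74 arrays, the probes whose ratios ran most like those of the 2 highest genes and the lowest were as follows, as a description of arrays that share the untreated RNA and large group differences. Ahsg ran most like Tmem273 (Pearson r = 0.905), Brdt (0.871), Tg (0.864), Napb (0.838) and Eno3 (0.833). Napb ran most like its own other probe (0.932), Necab2 (0.930), Sag (0.925), Tg (0.918) and Brdt (0.891). Igfbp4 had looser companions, Evpl (0.715), Cd52 (0.701), Mdga1 (0.683), Chst2 (0.637) and Ier2 (0.634).

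**Figure D5:**
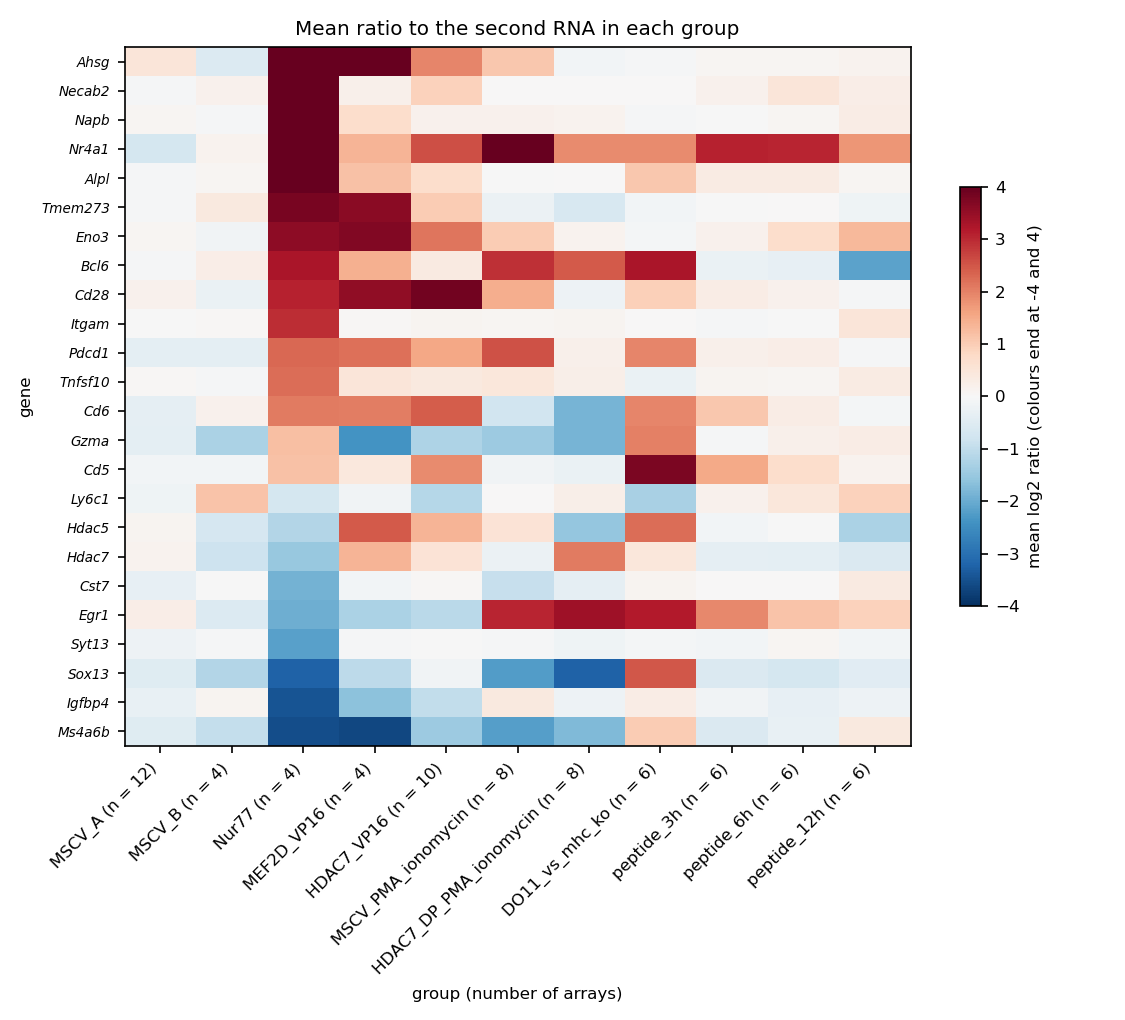
Mean log2 ratio of 24 genes (rows) in the 11 groups of the series (columns, with the number of arrays), red above and blue below the second RNA of each array. The upper rows are dark red with Nur77, and Nr4a1 is at 1.36 or above in every group other than the 2 empty-virus sets.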

How the data were processed

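Two-colour arrays read total RNA as cDNA coupled to Cy3 or Cy5, per the labels' protocols; the titles gave the dye of each RNA. The authors deposited log2 ratios for 16463 probes; the scanner, background correction, normalization, log base and ratio direction were not given in the sources used here. Base 2 was assumed and no value settles it; if the values are natural logs, folds are understated. Test RNA over untreated RNA was taken as the direction of all columns, and Nr4a1 was positive on all 4 Nur77 arrays of both dyes. On the MSCV_B arrays Nr4a1 lay near 0. There 44 of the 45 probes with large mean ratios had 1 sign on both dyes. Picking probes by the mean of all 4 arrays favours 1 sign, so that count cannot settle the direction. Empty-virus and Nur77 arrays of the same dye correlated at 0.249 to 0.528 over all probes, and those of opposite dye at -0.284 to 0.0492. The direction of the MSCV_B columns is not stated and was not tested, and counts with the Cy3 ones turned are given. Probes were named from the platform annotation: 14551 had 1 symbol, 6 several and 1906 none. Each array was centred on its median. limma 3.58.1 in R 4.3.3 fitted group means and dye to the 8 arrays (5 residual degrees of freedom; a dye effect passed on 29.3% of probes), and likewise to Nur77 with MEF2D_VP16 or HDAC7_VP16, with Benjamini-Hochberg adjustment over all probes. The steps were tested on simulated data.

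Genes named are Nr4a1, the 20 highest and 20 lowest probes that passed with 1 symbol, up to 4 passing members of each of 26 lists, fixed regulators, and the 5 highest and 5 lowest for each VP16 comparison; further list members are given to complete counts of 5 or fewer or were chosen after their values were seen. The members and lists were chosen with earlier results of these data known. Alternatives covered the dye term, centring, scaling, variance model, control arrays, ratio sign, probe averaging and leaving out each array. The number of arrays limits the precision.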

Additional observations from a re-analysis of the deposited data

Results flagged for a closer look

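In groups of 4 arrays, 1 array stood far from the other 3 in 8 of 210 groups read. Chance picks out about 1 in 20 groups, so 8 is no more than chance gives. The dye was not taken into account. Of the 8 groups, 5 were Nur77 replicate 4, the array on slide 8 with the narrower spread. There Necab2 read 4.16 against 5.53 to 5.61 on the other Nur77 arrays, Wwtr1 2.09 against 3.30 to 3.46, F7 2.22 against 3.26 to 3.38 and Itih5 1.70 against 3.12 to 3.26. BC018473, a lowered transcript, read -0.59 there against -1.78 to -1.71. Nr4a2 read 1.35 on Nur77 replicate 2 against -0.15 to 0.0060 on the others. Among the empty-virus arrays, Nr4a1 read 0.68 on replicate 3 against -0.12 to -0.0040, and Cd247 read -0.15 on replicate 1 against -0.31 to -0.30.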

How the results depend on the processing

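Of 99 named genes that passed between Nur77 and empty virus, 78 kept their call in all 8 fits that left out 1 array; fitting no dye left 67, and fitting the 11 groups together left 74. The other 21 were Sox13, Cd274, Ifngr1, Nfatc2, Hdac5 and Sgk1 (lost in 1 of 8 fits), Ccnd2 (2), Cdkn1a (3), Lpin1 (4), Cd160, Cd4, Dnajb9, Trp53inp1 and Ms4a4b (5), Tnf, Lef1, Nfatc3, Irf8 and Fetub (6), Mt2 (7) and Hdac7 (8). Between 3 (without Nur77 replicate 4) and 15 (without empty-virus replicate 1) calls were lost per array. Without the dye term the counts of passing probes were 365 between Nur77 and empty virus, 1391 for Nur77 over untreated cells, 126 for empty virus over untreated cells and 538 against HDAC7_VP16. Fitted together with all other groups, the first 3 were 652, 2091 and 427. Leaving out each array gave 677 to 1255 between Nur77 and empty virus, 244 to 959 for empty virus over untreated cells, 1355 to 2201 against MEF2D_VP16 and 602 to 958 against HDAC7_VP16. Other control arrays gave similar or higher counts with many other probes: 1217 with all 16 empty-virus arrays (681 shared with the 1138) and 1464 with the 12 MSCV_A arrays (634 shared). With the MSCV_A arrays as control, Selenbp2 (-2.14), Bnip3 (-1.62), Ccng2 (-2.17), Lpin1 (-0.086), Lss (-0.0059), Bcl2 (0.14), Sgk1 (0.27) and Tgfb1 (0.0053) changed sign. Selenbp1, which did not pass between Nur77 and empty virus, also changed sign (-1.66). With all 16, Selenbp2 (-1.17), Bnip3 (-0.94), Ccng2 (-1.41) and Sgk1 (0.011) did. With the sign of the 2 Cy3 empty-virus arrays turned, 1055 probes passed (616 shared), and Selenbp2 (-1.67), Bnip3 (-1.32), Ccng2 (-1.16), Lss (-0.25) and Anxa1 (0.040) changed sign. The cause was not tested. No paired analysis was possible because the labels give slide numbers and no replicate numbers. List counts without each array and with the MSCV_A arrays were chosen after seeing the data.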

Other observations

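Families outside the lists were read after the values were seen and are described only, beside the 3.89% of all measured genes that rose and 3.43% that fell. Of 15 unconventional myosins, motors that carry cargo on actin, 4 rose and 0 fell: Myo7a by 2.76, Myo5c by 1.55, Myo1e by 1.24 and Myo5a by 1.05, with a family median of 0.033. A symbol pattern for prostaglandin receptors, which also fits prostaglandin reductases, picked 10 genes. Of these 10, the receptors Ptger3 and Ptger2 rose by 1.43 and 1.42, and 0 fell. The 2 measured segments of the T cell receptor gamma locus, Trgv2 and Trgv1, rose by 2.48 and 2.11, and near-identical segments may share signal. Of 17 chemokine receptors, Cxcr6 (1.71) and Cxcr3 (1.31) rose, and Ccr4 (-0.74), Cx3cr1 (-0.52) and Cxcr4 (-0.48) fell. Of 20 dual-specificity phosphatases, Dusp4 (1.55) and Dusp10 (1.28) rose, and Dusp6 (-0.60) and Dusp14 (-0.51) fell. Of 18 regulators of G protein signalling, Rgs12 (1.71), Rgs18 (1.21) and Rgs2 (0.60) rose and 0 fell.

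Further raised genes outside the lists, each picked after its value was seen and given as a value only, were Cd96, a receptor of T and natural killer cells (2.31), Cd200r1, an inhibitory receptor (2.27), Stra6, a receptor for retinol-binding protein (2.04), Hsd11b1, which reactivates glucocorticoid (2.02), Abca1, a cholesterol exporter (1.76), and Th, tyrosine hydroxylase (1.69). Of the 1138 passing probes, 77 had no gene symbol, 13 of them at least 2-fold changed.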
